A study of Rattus norvegicus with 5 samples.

Results

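The comparison described here set the infarcted rat heart that received an injection of SNAP against the infarcted heart left without treatment. SNAP is an S-nitrosothiol, a small molecule that releases nitric oxide. The comparison rests on 2 of the 5 libraries of the series, labelled SNAP and MI, and its members are the 12903 of 20646 listed genes that reached an FPKM of 1 in either library. FPKM is a count of sequenced fragments divided by the length of the gene and the depth of the library. All rats were male Sprague-Dawley rats aged 7 to 8 weeks. In the MI rats the left anterior descending coronary artery was tied under isoflurane and nothing further was given to the heart. The SNAP rats had the same ligation and then an injection of SNAP solution into the infarcted area. A sentence of the methods also names the SNAP group among those that were sutured, which the labels do not. The DTMS rats carried a hydrogel suture with microchannels over the infarct, the S-DTMS rats the same suture with SNAP pumped through it, and the Normal rats had no infarct. According to the methods, the operated rats also received penicillin. The methods describe no injection of vehicle into MI hearts, so SNAP and the act of injecting cannot be told apart. They do describe saline given through the pump reservoir to a group called shank, which seems to be the DTMS group. The labels place the sampling at 1 month and the methods at a week after therapy, and the tissue was the wall of the left ventricle.

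Nitric oxide binds soluble guanylyl cyclase, and the cyclic GMP formed activates a protein kinase that relaxes vascular smooth muscle. It also lowers the adhesion of platelets and leukocytes to endothelium, and it acts together with vascular endothelial growth factor in the growth of capillaries. In a heart after coronary ligation, dead muscle is cleared by leukocytes, fibroblasts lay down a collagen scar, and the remaining muscle turns on stretch genes. Gene lists for these processes could not be read here, because the table gives rat Ensembl identifiers only and 0 of the 20646 identifiers were paired with a symbol by the reference table used here. Markers of heart muscle were not analysed here for the same reason. The genes are therefore described by level, by counted length, and by their place among the 5 libraries, and 4 of them by identifier.

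A legend of the study speaks of biological replicates for the sequencing, while 1 library per group was analysed here, and whether a library holds RNA of 1 heart or a pool is not given in the sources used here. The differences below could not be set against a spread between replicates, and p-values are not given. The depth was close to equal, with 16785936 fragments for MI and 17379225 for SNAP, and 16731024 to 17119257 for the other 3. Intervals given for a ratio of 2 libraries are exact binomial intervals at the 95% level and cover counting error only. The tissue was bulk ventricular wall, so fewer cells of a type and less RNA per cell cannot be told apart.

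Of the 6007 genes that reached an FPKM of 10 in either library, the one with the largest positive difference, SNAP minus MI, was ENSRNOG00000007607. Its FPKM was 7.05 in Normal, 7.28 in MI, 245 in SNAP, 4.11 in DTMS and 98.6 in S-DTMS. The level in SNAP was 33.6 times that in MI, with a counting interval from 30.1 to 37.7, and rested on 11320 fragments in SNAP and 325 in MI. Both libraries that had received SNAP were high, and the 3 others were low and close together.

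ENSRNOG00000007830 had the next largest positive difference. Its FPKM was 23.8 in Normal, 9.40 in MI, 129 in SNAP, 8.68 in DTMS and 45.8 in S-DTMS, and the ratio of SNAP to MI was 13.7, with an interval from 12.5 to 15.1. Again both libraries with SNAP were the highest, but here Normal lay above MI and DTMS.

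The genes lower in SNAP had other shapes. ENSRNOG00000042018, with the largest negative difference, was listed at an FPKM of 23.4 in MI, from 193 fragments, and at 0 in the other 4 libraries. Against a floor of 3 fragments in the SNAP library, its level was at least 66.6-fold lower in SNAP. This gene was thus detected in the MI library alone, and its log2 change describes that library more than the SNAP library.

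ENSRNOG00000045989 had an FPKM of 10.6 in Normal, 37.9 in MI, 0.671 in SNAP, 33.3 in DTMS and 4.38 in S-DTMS. The level in MI was 56.5 times that in SNAP, with an interval from 23.9 to 175, which is wide because only 5 fragments were counted in SNAP. Here both libraries with SNAP were the lowest, and MI and DTMS were the highest.

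**Figure D1:**
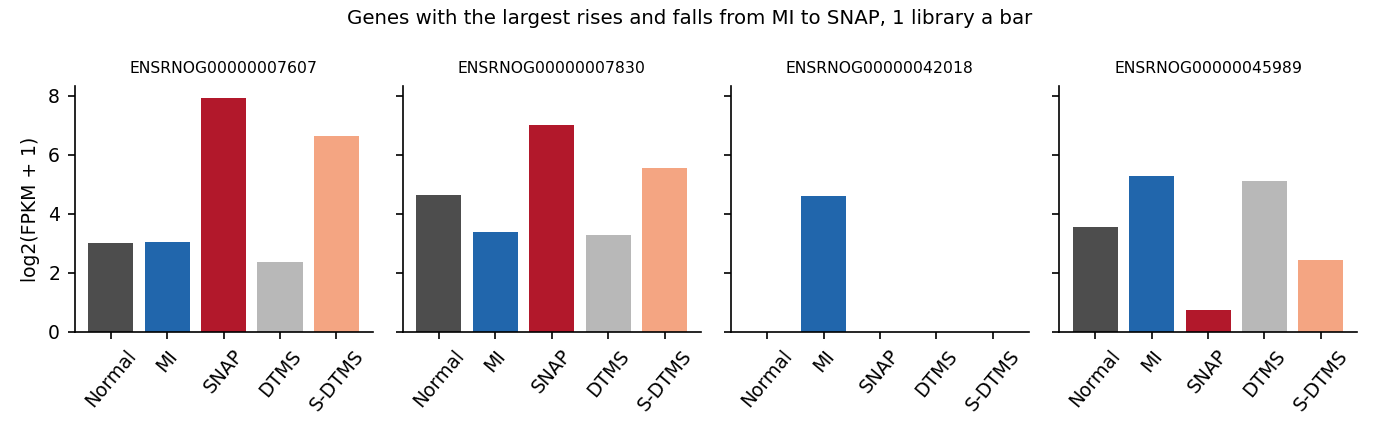
Expression of 4 genes as log2(FPKM + 1), with 1 bar for each of the 5 libraries and no error bars because each group has 1 library. ENSRNOG00000007607 and ENSRNOG00000007830 stood highest in SNAP and S-DTMS, ENSRNOG00000042018 was above 0 in MI alone, and ENSRNOG00000045989 stood lowest in SNAP and S-DTMS.

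The 12 largest positive differences, from 4.89 down to 2.92 on the log2(FPKM + 1) scale, were then read in the suture libraries, which took no part in their choice. In 7 of the 12 genes S-DTMS exceeded DTMS by 1 or more on the log2 scale, in 4 the suture libraries lay within 1 of each other, and in 1 S-DTMS was the lower. Over all 12903 tested genes S-DTMS was higher by at least 1 in 8.81% and lower in 4.46%. The DTMS library was within 1 of MI for 10 of the 12. For 8 of them MI was within 1 of Normal, so that SNAP was bound to lie well above Normal. For 4 MI was below Normal by at least 1, against 509 of all 12903 genes, and a low MI value favoured the choice of a gene.

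A gene with an FPKM of 0.386 in Normal and 0.285 in MI, the third in this order, reached 13.3 in SNAP and 2.66 in S-DTMS and had 0.163 in DTMS. The fifth was at 8.63 in Normal, 2.61 in MI, 32.9 in SNAP, 3.89 in DTMS and 44.4 in S-DTMS. The ninth showed 10.6, 8.80, 79.7, 9.92 and 86.7 in the same order of libraries. In these last 2 genes the suture with SNAP reached a level as high as the injection or higher, while the plain suture stayed near MI.

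Other large differences were not shared in this way. The most abundant of the 12, the fourth in order, had an FPKM of 73.5 in Normal, 99.996 in MI, 1109 in SNAP, 711 in DTMS and 587 in S-DTMS, so that all 3 treated libraries were high. The sixth went from 0.918 in MI to 16.7 in SNAP, with 23.7 in Normal, 20.04 in DTMS and 2.37 in S-DTMS, and there only MI and S-DTMS were low. The eighth was at 10.9 in SNAP, on 80 fragments, with 0.423 in MI, 0.138 in Normal, 0.565 in DTMS and 0 in S-DTMS, and was high in the SNAP library alone.

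The 12 largest negative differences, from -4.61 to -2.28, split more evenly. S-DTMS was below DTMS by at least 1 for 5 of them, above it for 2, and within 1 for 5. Of all tested genes, 4.46% were below and 8.81% above. DTMS was itself below MI by at least 1 for 6 of the 12. No share of all genes was taken for DTMS against MI, here or for the positive differences. MI had exceeded Normal by at least 1 for 6, against 305 of all 12903 genes. SNAP ended below Normal by at least 1 for 8, against 817 of all. A high MI and a low SNAP value favoured the choice of a gene. The gene of rank 5 among these was one of the highest of the Normal library, at an FPKM of 1893, and had 129 in MI, 20.6 in SNAP, 79.1 in DTMS and 6.404 in S-DTMS. The gene of rank 7 had 115 in Normal, 37.9 in MI, 6.30 in SNAP, 54.1 in DTMS and 5.89 in S-DTMS. Both were already lower in MI than in Normal and lower still in the 2 libraries with SNAP.

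Over all 12903 genes, 319 had a log2 level at least 1 above MI in SNAP, or 2.47%, and 552 were lower, or 4.28%, together 6.75%. The change of the middle gene was -0.15, the 5th and 95th percentiles were -0.94 and 0.62, and 76.1% of the genes lay within 0.5 of no change. The limit of 1 cut through a dense region, with 173 genes between 1 and 1.1 and 200 between 0.9 and 1 in size. The balance of directions followed the scale. After each library was divided by a size factor, the median over genes of its ratio to the geometric mean of the 5 libraries (median of ratios), the middle gene stood at 0.02, and 416 genes were higher and 416 lower, or 3.2% each and 6.4% together of 13010. Relative to the median change, 397 were higher and 381 lower. All 319 genes higher as deposited were also higher after the median of ratios, and 416 of the 552 lower genes, or 75.4%, were also lower. The SNAP library held 23.2% of its fragments in the 10 most abundant genes, MI 20.9% and Normal 16.6%. With FPKM rescaled without the 10 most abundant genes, the middle gene stood at -0.11 and 329 genes were higher and 532 lower, so that most of the shift remained.

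**Figure D2:**
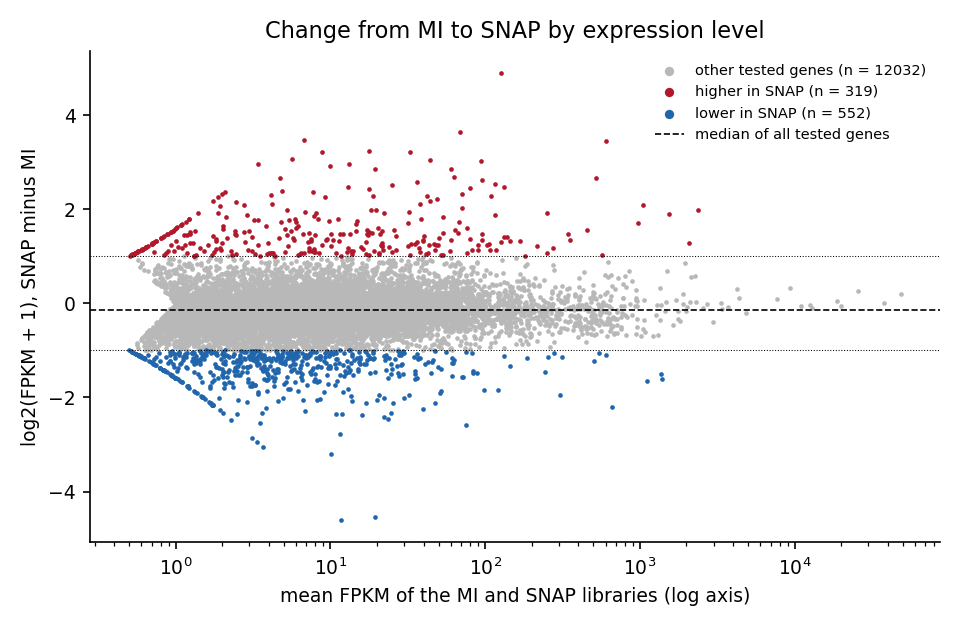
Each point is a gene, plotted by its mean FPKM in the MI and SNAP libraries (log axis) and its difference of log2(FPKM + 1), SNAP minus MI, with dotted lines at 1 and -1 and a dashed line at the median of -0.15. The 319 higher genes reach 4.89 and the 552 lower genes -4.61, and the slanted edges at the left are genes at or near 0 in 1 of the libraries.

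The changed genes carried a visible part of the RNA. The 319 higher genes held 2.18% of the fragments of MI and 6.72% of those of SNAP, with 3.83% in Normal, 4.33% in DTMS and 6.51% in S-DTMS. The 552 lower genes held 5.30% in MI and 1.76% in SNAP, with 2.895% in Normal, 1.93% in DTMS and 2.37% in S-DTMS. MI was thus the lowest library for the first group and the highest for the second, as the choice of these genes favours. A single gene made up 22.5% of the gain, with an FPKM of 1201 in MI, 2925 in SNAP, 2240 in Normal, 3530 in DTMS and 3314 in S-DTMS. Another single gene made up 22.4% of the loss, with 2030 in MI, 714 in SNAP, 45.8 in Normal, 589 in DTMS and 33.1 in S-DTMS. In the first of these genes MI was the lowest library and in the second the highest, so that SNAP, DTMS and S-DTMS all lay on the Normal side of MI.

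The higher and the lower genes lay at different levels of expression. Among the 1365 genes with a mean FPKM of at least 50 in MI and SNAP, 56 were higher and 34 lower. Among the 2699 genes from 2 to 5, 41 were higher and 149 lower. With the median of ratios the same classes gave 75 higher and 24 lower of 1448, and 62 higher and 119 lower of 2627. Genes of at least 50 were thus more often higher and those from 2 to 5 more often lower on both scales. Genes from 10 to 50 turned with the scale, with 81 higher and 114 lower as deposited and 118 and 80 after the median of ratios. Genes with a mean under 1 entered only through the library in which they were high, so their shares of 11.1% higher and 12.5% lower were bound to be large.

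**Figure D3:**
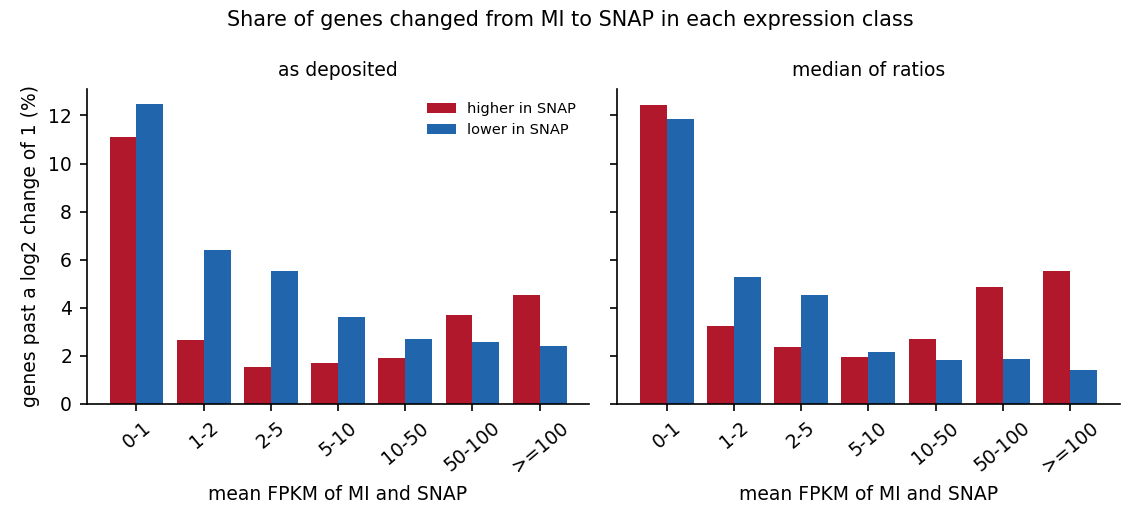
Bars give the percentage of genes past a log2 change of 1 in each class of mean FPKM, higher (red) or lower (blue) in SNAP than in MI, on FPKM as deposited (left) and after the median of ratios (right). Higher genes prevail from a mean FPKM of 50 upwards on both scales, with 4.10% against 2.49% as deposited and 5.18% against 1.66% after scaling.

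Counting error bore on both groups. Of the 319 higher genes, 86 had under 20 fragments in MI and SNAP together and 65 were at 0 in MI. Of the 552 lower genes, 108 had under 20 and 79 were at 0 in SNAP. The counting interval of the ratio left out 1 for 246 higher and 472 lower genes, which compares these 2 libraries and not the treatments. The genes were chosen by the same fragments, so the choice favoured this result, and the share of all genes was not taken. With at least 20 fragments on the side where they were detected, 10 genes were seen in MI and at 0 in SNAP, and 1 gene was seen in SNAP and at 0 in MI.

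The counted length of a gene, which is the length that its FPKM and fragments imply, moved with the change. The median change was -0.28 for genes from 500 to 1000 bases, -0.20 from 1000 to 2000, -0.14 from 2000 to 4000, -0.06 from 4000 to 8000 and 0.06 above 8000. After removal of the median of each of 20 length bins, 417 genes were higher and 338 lower. Genes under 200 bases, for which few fragments were counted, stood at -0.11. The median counted length was 1365 bases for the higher genes and 1346 for the lower, against 2169 for all. Of the 319 higher genes, 87 had a counted length under 200 bases, and of the 552 lower genes 97. Among the 469 tested genes of that length, 18.6% were higher and 20.7% lower, with a median of 4 fragments in MI. The shorter medians of the changed genes thus rest in part on genes with few fragments. The change thus became less negative with length from 500 bases upwards. With the length bins removed, ENSRNOG00000007607 stood at 5.03, ENSRNOG00000007830 at 3.76, ENSRNOG00000042018 at -4.29 and ENSRNOG00000045989 at -4.23. These 4 were chosen for the size of their difference, so their direction could hardly have turned.

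Whether the changes led towards the uninjured heart was read from the Normal library. A gene was called nearer when SNAP lay closer to Normal than MI did, and since the MI library enters both differences, its own deviations favour such a result. Over all 12903 genes SNAP was nearer for 38.3%. It was nearer for 152 of the 319 higher genes, or 47.6%, and for 202 of the 552 lower genes, or 36.6%. After the median of ratios the shares were 38.7% of the higher and 45.9% of the lower genes, against 44.6% of all. The group that exceeded the share of all genes was thus the higher genes on one scale and the lower genes on the other. The SNAP library lay 1 or more from Normal on the log2 scale at 1063 of these genes and MI at 814, and after the median of ratios at 866 and 741, so SNAP was the farther from Normal on both scales.

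The changed genes fell into clear classes by their place. Of the 319 higher genes, 109 had been lower in MI than in Normal by at least 1, and 92 of these lay within 1 of Normal in SNAP. Their median FPKM was 10.7 in Normal, 2.61 in MI, 11.2 in SNAP, 7.87 in DTMS and 12.03 in S-DTMS, so that MI was the low library and SNAP lay near Normal. A larger class of 125 genes had MI within 1 of Normal and SNAP above Normal by at least 1. Its medians were 1.93 in Normal, 1.78 in MI, 8.84 in SNAP, 2.36 in DTMS and 3.75 in S-DTMS, with SNAP the highest and S-DTMS next. A further 83 genes stayed within 1 of Normal in both libraries, and 2 were above Normal in MI already and higher still in SNAP.

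Of the 552 lower genes, 152 had been higher in MI than in Normal by at least 1, and 139 of these lay within 1 of Normal in SNAP. Their median FPKM was 1.14 in Normal, 5.50 in MI, 1.24 in SNAP, 2.16 in DTMS and 1.55 in S-DTMS. The class that went from near Normal in MI to below it in SNAP held 212 genes, with medians of 7.48 in Normal, 6.54 in MI, 1.83 in SNAP, 3.57 in DTMS and 4.10 in S-DTMS. For 26 genes MI was already below Normal by at least 1 and SNAP lower again, with medians of 28.6 in Normal, 8.46 in MI and 1.67 in SNAP. The other 162 were within 1 of Normal in both. On both sides the genes that left the range within 1 of Normal outnumbered those that came back into it, at 125 to 92 for the higher genes and 212 to 139 for the lower. After the median of ratios this was 179 to 107 for the higher genes, and 124 to 123, nearly equal, for the lower. Over all 12903 genes as deposited, SNAP was below Normal by at least 1 in 817 and MI in 509. SNAP was above Normal by at least 1 in 246 and MI in 305. After the median of ratios, SNAP was below in 439 and above in 427 of 13010, and MI in 384 and 357. Shares of all genes that left or came back were not taken.

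**Figure D4:**
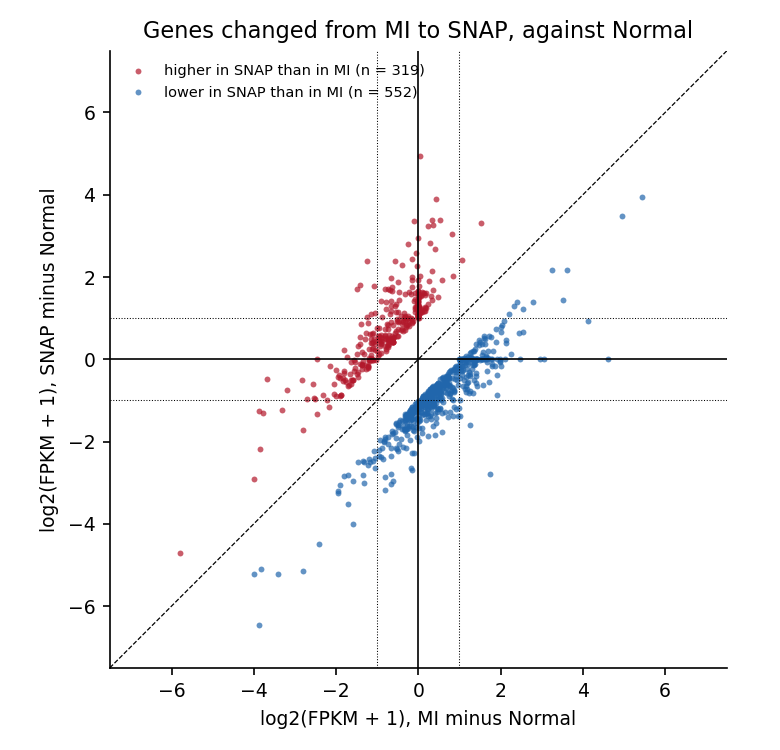
Each point is one of the 319 higher (red) or 552 lower (blue) genes, plotted by MI minus Normal (horizontal) and SNAP minus Normal (vertical) as differences of log2(FPKM + 1). Points on the horizontal axis line are at the Normal level in SNAP, points on the vertical axis line were at the Normal level in MI, and the dashed diagonal marks no change from MI to SNAP. The 125 higher genes that left the Normal level stand above 1 near the vertical axis line, and the 212 lower genes below -1.

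The order of the 5 libraries was read for the places of SNAP and MI. The changed genes were chosen by the difference of these 2 libraries, so the choice favoured places at the ends for both. Among the 319 higher genes, SNAP was the highest of the 5 in 161 and MI the lowest in 217, ties included, and both held in 96. Over all 12903 genes SNAP was the highest in 6.33% and MI the lowest in 15.7%. Among the 552 lower genes, SNAP was the lowest in 328, MI the highest in 322, and both in 150, while over all genes SNAP was the lowest in 36.6% and MI the highest in 17.0%. Of the higher genes, only SNAP was at the end of the order in 65 and only MI in 121, and of the lower genes only SNAP in 178 and only MI in 172. Over all 12903 genes, SNAP was the highest without MI the lowest in 629, and the reverse held in 1842. SNAP was the lowest without MI the highest in 4059, and the reverse held in 1531. After the median of ratios, SNAP was the highest in 256 and MI the lowest in 278 of the 416 higher genes, with SNAP alone in 105 and MI alone in 127. Over all 13010 genes the shares were 17.9% and 20.3%, with SNAP alone in 1832 and MI alone in 2144. Of the 416 lower genes SNAP was then the lowest in 218 and MI the highest in 271, with SNAP alone in 95 and MI alone in 148, against 17.8% and 17.9% of all genes for the lowest and the highest place. By count, MI thus stood at its end of the order about as often as SNAP or more often. As deposited, the shares of all genes differed between these libraries, so the counts alone do not rank them. SNAP was the highest in 50.5% of the higher genes against 6.33% of all, and MI the lowest in 68.0% against 15.7%. Among the lower genes SNAP was the lowest in 59.4% against 36.6%, and MI the highest in 58.3% against 17.0%.

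The suture libraries offered the nearest thing to a repeat, since S-DTMS against DTMS also differs by SNAP and shares no library with SNAP against MI. If the shank group is the DTMS group, this pair had saline in place of SNAP, which MI lacked. Of the 319 genes higher in SNAP than in MI, 116, or 36.4%, were higher in S-DTMS than in DTMS by at least 1, against 8.81% of all 12903 genes. In the opposite direction 22 of the 319, or 6.90%, were lower in S-DTMS, against 4.46% of all genes. The median difference of S-DTMS and DTMS was 0.64 for the 319 genes and 0.24 for all genes. After the median of ratios, 111 of 416 higher genes, or 26.7%, were also higher in S-DTMS and 34, or 8.17%, lower, against 5.13% and 7% of all 13010. The genes that were higher with the injection were thus more often higher than lower with the loaded suture on both scales. With 1 library a group, this compares 4 libraries and is no test of SNAP.

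The share differed with the size of the difference and with the level of the gene. Of the 47 genes with a difference of at least 2, 26, or 55.3%, were also higher in S-DTMS than in DTMS by at least 1, and of the 272 genes with a difference from 1 to 2, 90, or 33.1%. It was 56.8% of the 81 higher genes with a mean FPKM from 10 to 50, 37.5% of the 56 with at least 50, and 26.9% of the 182 under 10. Among the 86 with under 20 fragments it was 18.6%, and among the other 233 it was 42.9%. Among the higher genes it was thus highest at middle levels and lowest where few fragments were counted. The shares lower in S-DTMS were 6.17%, 1.79% and 8.79% for the levels in the same order, and 9.30% and 6.01% for the fragment classes. Over all tested genes the median of S-DTMS minus DTMS was 0.27 from 10 to 50 and 0.10 from 50 upwards. Shares of all genes by level were not taken, so a pattern common to all genes cannot be told apart.

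The same share was taken by place relative to Normal. Of the 125 genes that went from near Normal in MI to above it in SNAP, 40, or 32.0%, were higher in S-DTMS than in DTMS and 5 lower. Of the 109 genes that had been below Normal in MI, 46, or 42.2%, were higher and 10 lower. Of the 83 genes within 1 of Normal in both MI and SNAP, 29, or 34.9%, were higher and 7 lower. These classes all lay above the 8.81% of all genes, so the share was not particular to one place. The shares lower in S-DTMS were 4%, 9.17% and 8.43% in the same order, against 4.46% of all genes.

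The 552 lower genes behaved otherwise. As deposited, 74, or 13.4%, were lower in S-DTMS than in DTMS and 69, or 12.5%, were higher, against 4.46% and 8.81% of all genes, with a median difference of -0.01. After the median of ratios, 76 of 416, or 18.3%, were lower and 32, or 7.69%, higher, against 7% and 5.13% of all genes. As deposited, the lower genes thus exceeded the share of all genes in both directions and were split almost evenly between them. After scaling they were more often lower than higher.

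**Figure D5:**
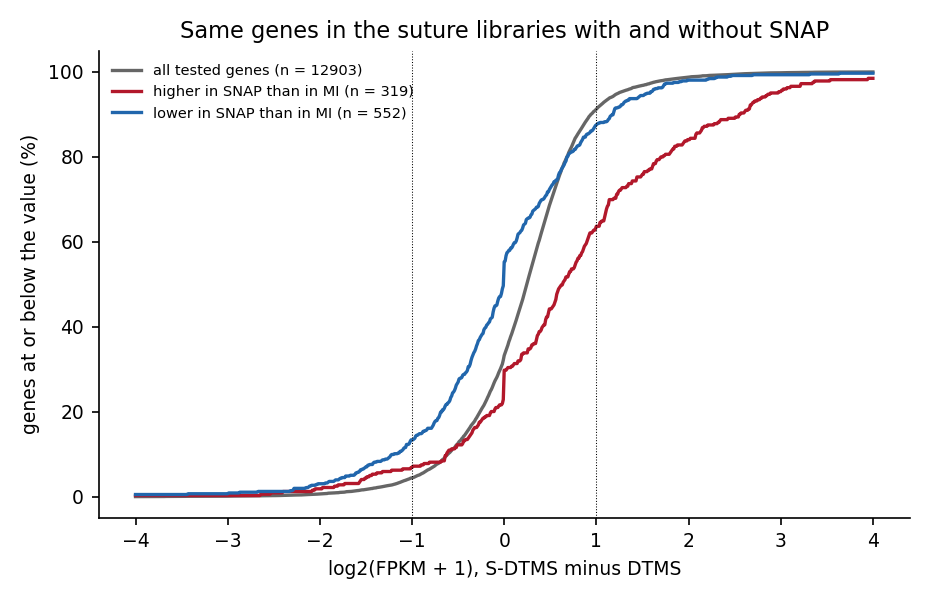
Cumulative percentage of genes by the difference of log2(FPKM + 1) between S-DTMS and DTMS, for the 319 genes higher in SNAP than in MI (red), the 552 lower (blue) and all 12903 tested genes (grey), with dotted lines at -1 and 1. The red curve is shifted to the right, with 36.4% of its genes past 1 against 8.81% of all genes, while the blue curve is wider than the grey on both sides.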

How the data were processed

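RNA of left ventricular wall from 5 groups of rats was sequenced by the authors on an Illumina NovaSeq instrument, with 1 library per group analysed here. The authors deposited FPKM values under rat Ensembl identifiers. The submitters' processing notes name HTSeq and the mouse build mm9 without giving their role, and no coordinates were used. The aligner and annotation are not given in the sources used here. The study's edgeR test was not run, since it needs replicates.

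Columns were assigned to groups through the labels. Fragments were worked out from FPKM by finding library totals for which gene lengths became whole, within 0.01 bases for 98.5% of 2323 genes. Fragments and lengths can be too small where all counts share a divisor. Changes are differences of log2(FPKM + 1), and those past 1 in size were counted. FPKM hides shifts caused by a few abundant genes, so the median of ratios over the 5 libraries was also used. Scripts were checked on simulated data.

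Identifiers were printed for the 2 largest rises and falls with an FPKM of at least 10, and values for the 12 largest. A wider rule by symbols, and gene lists and cell type markers, were set up but not run because no identifier had a symbol. The comparisons, limits and lists were chosen with earlier results of these data known. The suture comparison, its alternatives, the classes of level, length and place, and the length bins were added after seeing the data. Tables were handled in pandas 2.3.3 under Python 3.11.15, with intervals from SciPy 1.17.1, arrays in NumPy 2.4.6 and plots in Matplotlib 3.10.9.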

Additional observations from a re-analysis of the deposited data

Results flagged for a closer look

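Some genes differed in opposite directions between the libraries with and without SNAP, in hearts without and with the suture. Of the 319 genes higher in SNAP than in MI, 22, or 6.90%, were lower in S-DTMS than in DTMS by 1 or more on the log2 scale. The share of all genes was 4.46%. Of the 552 genes lower in SNAP than in MI, 69, or 12.5%, were higher in S-DTMS than in DTMS, against 8.81% of all genes. After the median of ratios these numbers were 34 and 32, or 8.17% and 7.69%, against 7% and 5.13% of all genes. Each group has 1 library, so the difference between the 2 settings was not tested.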

How the results depend on the processing

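The 6 counts were recomputed under 9 alternatives planned and 1 added (all added for the suture counts), and 43 of 60 values stayed within 1.5 times. With a pseudocount of 0.1, 1508 genes changed, 1077 of them lower, 559 changed genes were nearer to Normal in SNAP, and the genes moving the same way in the suture libraries numbered 184 higher and 226 lower, since low genes are damped less. The 559 were 37.1% of the changed genes, against 38.1% of all. The 184 and 226 were 42.7% of the higher and 21.0% of the lower genes, against 12.5% and 6.97% of all. With an FPKM of at least 5, fewer genes entered and 520 changed, 202 higher and 318 lower. Of these, 208 were nearer to Normal, or 40% against 38.3% of all. In both pairs 48 were lower, or 15.1% of the lower genes against 4.71% of all. At a log2 change of at least 2, set for the suture pair as well, 95 genes changed, 47 higher and 48 lower. Of these 95 genes, 32 were nearer to Normal, or 33.7% against 38.3% of all. In both pairs 18 were higher and 5 lower, or 38.3% of the higher and 10.4% of the lower genes, against 1.31% and 0.69% of all. With the median of each length bin removed, 338 genes were lower. The share of higher among changed genes was 36.6% as deposited, evenly split after the median of ratios (416 of 832), 51.0% relative to the median change and 55.2% with length bins. All 36 values of the 4 named genes kept their direction and a size above 1. These genes were chosen for the largest differences and filters leave their values unchanged, so this could hardly have come out otherwise. Removing the filter changed no count, as a gene under 1 in both libraries cannot reach the limit. The medians of gene lists were not run for want of symbols. No paired analysis was possible because 1 library stands for each group. Depth limits scarce genes most.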
